A study of Mus musculus with 7 samples.

Results

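The genes described here are 9 members of the germinal center (GC) programme, chosen by name: Bcl6, Mybl1, Gcsam, Rgs13, Mef2b, Fas, Nuggc, Basp1 and Neil1. All 9 were found among the 48795 genes of the deposited table, and all 9 were among the 11573 genes tested, which reached a deposited value of 1 TPM (a transcript abundance per length and per fixed library total) in at least 3 of the 7 libraries. The libraries are bulk RNA sequencing of splenic B-lineage cells from female wild-type C57BL/6 mice aged 8 to 12 weeks, with spleens taken 10 days after intravenous injection of sheep red blood cells (SRBC), a particulate antigen that elicits GCs with T cell help. B cells were enriched with magnetic beads against CD43, and red cells were lysed before flow sorting. Memory B cells (MBCs, 3 libraries) were sorted as B220+, CD138- and IgD- cells that carried CD38 and CD273 (gene Pdcd1lg2). The gate of the plasma cells (PCs, 4 libraries) was B220 low, CD138+ and IgD-, which does not separate them from dividing plasmablasts, and GC B cells themselves were not analysed here. The labels do not say whether replicates were separate mice, so p-values measure the spread between these samples, which may be technical.

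GCs are sites in B cell follicles where activated B cells divide, mutate their immunoglobulin genes in the dark zone (DZ) and are selected by antigen and T cell help in the light zone (LZ). Their transcriptional programme is built around the repressor BCL6, whose expression is induced with T cell help and in part by MEF2B, and it includes adaptor and signalling proteins that hold cells in the follicle, the death receptor FAS and enzymes that act on damaged DNA. B cells leave the GC as MBCs or as PCs, and the GC programme is switched off in both. The comparison asks how the RNA of these genes differed between cells sorted as MBCs and as PCs. Without GC B cells as a reference, it does not measure how much of the programme remained. The gates do not show that the sorted cells came from GCs.

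The library labelled MBC replicate 3 differed from the other MBC libraries in marker genes and in its likeness to PC libraries. Results that rest on it are therefore given with and without it. Values are scaled TPM, the deposited TPM divided by a factor per library that aligns the bulk of the genes, and TPM is already per transcript length. Pearson's r over the tested genes, a description since genes are not replicates, was 0.85 to 0.957 between PC libraries. It was 0.675 between MBC replicates 1 and 2, and 0.687 and 0.681 between each of these and MBC replicate 3. By this measure MBC replicate 3 was no further from them than they were from each other. With the PC libraries r was 0.537 to 0.564 for MBC replicates 1 and 2 and 0.70 to 0.777 for MBC replicate 3. Cd38, whose product was used to sort MBCs, was at 130, 186 and 6.77 scaled TPM in replicates 1 to 3 of the MBCs and from 9.89 to 21.3 in PCs. Pdcd1lg2, which encodes CD273, was at 43.3, 24.4 and 2.59 in the same libraries. Sdc1, which encodes the PC marker CD138, was listed at 0, 0 and 0.0585 scaled TPM in the MBC libraries and lay between 49.6 and 78.1 in the PC libraries. Mitochondrial transcripts took 33.2%, 33.5% and 19.7% of TPM in MBC replicates 1 to 3 and 8.1% to 9.8% in the PC libraries, and immunoglobulin transcripts took 1.65% to 3.16% and 49.4% to 55.9%. The estimated depth was lowest in MBC replicates 1 and 2, where 3 reads of a 1 kb transcript correspond to 0.484 and 0.437 TPM, against 0.26 TPM in MBC replicate 3 and 0.183 to 0.324 TPM in the PC libraries. These floors cover counting error only. The titles also carry 4 codes with 2 prefixes, and 3 codes occur in both groups, but what a code marks is not stated. MBC replicate 3 is the only MBC library with its prefix, so within the MBCs its difference cannot be told apart from the prefix.

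With all 7 libraries, Mybl1 was the only member called different between the groups. Mybl1 was lower in PCs, and no member was higher (limma, calls at an adjusted p under 0.05 and a change of 1 or more on the log2 scale). Of all genes tested, 2.14% were called lower in PCs and 6.41% higher. At an unadjusted p under 0.05, 2 members were lower (Mybl1 and Rgs13) and 0 higher. Without the library labelled MBC replicate 3, Mybl1 was again called lower in PCs, and Mef2b and Nuggc were called higher, in a fit that called 8.2% of all genes lower and 15.1% higher. The median log2 fold change over the members, PC minus MBC, was -0.01 with all libraries and 0.71 without that library, against 0.14 and 0.21 over all genes tested. Fold changes are on the scale of log2(scaled TPM + 1), which understates the change of low genes.

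**Figure D1:**
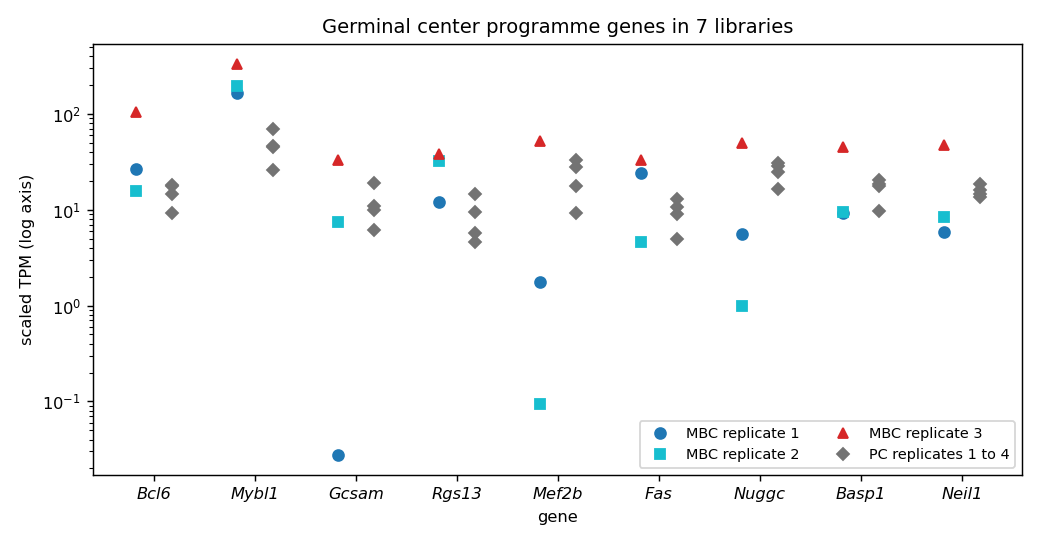
Scaled TPM of the 9 genes (log axis) in each of the 7 libraries, with MBC libraries on the left and the 4 PC libraries (grey diamonds) on the right of each gene. The library labelled MBC replicate 3 (red triangles) holds the highest value for each gene, and Mybl1 alone has every MBC library above every PC library.

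Stretches of DNA before RefSeq starts of 3 members are shown here, each with a match to a motif of a factor known in GC B cells. RefSeq transcript starts gave 8 windows for 7 members (250 bases before to 50 bases after the start, build GRCm38.p6), and Mybl1 and Nuggc had no window. Both strands were searched for 4 motifs. The letters TTCNNNGAA, a palindrome that STAT factors and BCL6 can bind, occurred in 3 of the 8 windows (both Bcl6 windows and Fas) and in 8.3% of 32851 such windows of all genes. The octamer ATGCAAAT, bound by POU factors that recruit the coactivator encoded by Pou2af1, occurred in 1 window (Mef2b) and in 1.74% of all windows. The E-box CAGGTG, bound by E proteins, occurred in 2 (Mef2b and Neil1) and in 20.2%. The palindromic MEF2 box occurred in 0 and in 3.69%. The sequences below are the 250 bases before the start on the gene's strand, with matches in capitals. The Neil1 window and the first Bcl6 window also held a match before the start and are not shown. They come from chr16:23981284-23981533 (minus strand, the second Bcl6 window, which lies within the gene and held more matches than the first), chr19:34290409-34290658 (plus strand, Fas) and chr8:70152511-70152760 (plus strand, Mef2b, within the gene as annotated). The nearest start of a transcript of the same gene in GENCODE M21 was 7569 bases from the RefSeq start for this Bcl6 window, 7 bases for Fas and 17 bases for Mef2b, so the Bcl6 window is not upstream of a start in that annotation.
Bcl6: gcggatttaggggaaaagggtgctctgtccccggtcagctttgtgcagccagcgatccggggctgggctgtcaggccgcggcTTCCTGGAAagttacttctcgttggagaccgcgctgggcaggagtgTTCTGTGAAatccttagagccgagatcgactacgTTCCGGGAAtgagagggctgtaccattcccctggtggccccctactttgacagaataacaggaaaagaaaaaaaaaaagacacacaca
Fas: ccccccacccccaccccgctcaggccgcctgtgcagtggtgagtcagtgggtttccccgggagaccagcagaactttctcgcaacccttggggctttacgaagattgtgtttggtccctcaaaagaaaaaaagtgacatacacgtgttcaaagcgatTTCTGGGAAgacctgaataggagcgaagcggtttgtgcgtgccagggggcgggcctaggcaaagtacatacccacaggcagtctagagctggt
Mef2b: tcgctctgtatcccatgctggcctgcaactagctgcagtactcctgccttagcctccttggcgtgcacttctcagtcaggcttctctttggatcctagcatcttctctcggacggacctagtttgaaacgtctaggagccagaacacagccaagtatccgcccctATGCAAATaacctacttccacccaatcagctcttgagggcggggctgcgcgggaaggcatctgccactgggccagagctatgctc
The second Bcl6 window held 3 matches to the palindrome, which began 168, 122 and 88 bases before the start. The Fas window held 1 match, 93 bases before the start, and the octamer of Mef2b began 85 bases before the start. These are matches of letters and were not measured as bound sites.

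Among the transcriptional regulators, Bcl6 encodes the repressor that GC B cells require (ENSMUSG00000022508, chr16:23965052-23988852, minus strand). Bcl6 was at 26.7, 15.6 and 105 scaled TPM in replicates 1 to 3 of the MBCs and at 14.6, 9.29, 17.6 and 18.3 in PC replicates 1 to 4. The library labelled MBC replicate 3 was 3.92 times the next MBC library and 5.73 times the highest PC library. MBC replicate 1 also lay above every PC library, and MBC replicate 2 lay within their range. The log2 fold change of Bcl6, PC minus MBC, was -1.24 (SE 0.61; limma, adjusted p = 0.252), and -0.47 (adjusted p = 0.476) without MBC replicate 3. Bcl6 was thus not shown to differ between the groups, although it was called lower in PCs on the TPM as deposited (-2.50, adjusted p = 0.0249), a scale on which the median over all genes was -0.911 and 26.1% of all genes were called lower.

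Mybl1 encodes A-MYB, a transcription factor of the MYB family that is found in dividing GC B cells (ENSMUSG00000025912, chr1:9667415-9700209, minus strand). Mybl1 was at 165, 197 and 336 scaled TPM in the MBC libraries and at 69.3, 25.8, 45.3 and 46.7 in the PC libraries, so that the lowest MBC library was above the highest PC library. It was the only member whose groups did not overlap, where 8.68% of all genes tested lay lower in PCs without overlap. Mean scaled TPM was 233 ± 91.1 (SD, n = 3) for the MBC libraries, against 46.8 ± 17.8 (SD, n = 4) for the PC libraries. PC minus MBC, the log2 fold change was -2.30 (SE 0.41; limma, adjusted p = 0.00752), and -2.00 (SE 0.40; limma, adjusted p = 0.0123) without MBC replicate 3. It was called in each of the 18 alternative fits, with adjusted p between 0.0011 and 0.0435. Within the title prefix shared by MBC replicates 1 and 2 and PC replicates 1 to 3 the log2 fold change was -2.03 (limma, adjusted p = 0.0361), and the other prefix holds a single library per group. Mybl1 was lower in the PC library for each of the 3 codes found in both groups. Mybl1 was also the most abundant member in each MBC library, at percentiles 97 to 98.6 of the tested genes, and lay at percentiles 79.3 to 91.5 in the PC libraries. Among the PC libraries its lowest value (25.8) lay within the ranges of Nuggc and Mef2b, so the order of these members in PCs is not separated by their spread.

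The other MYB family genes had a different order. Myb, which encodes the c-MYB of immature and dividing blood cells, was at 0.291, 0.303 and 3.39 scaled TPM in the MBC libraries and from 5.14 to 13.7 in PCs, without overlap (13% of all genes tested lay higher in PCs without overlap). Its log2 fold change was 2.24 (SE 0.62; limma, adjusted p = 0.0571), and 2.72 (adjusted p = 0.0107) without MBC replicate 3. Mybl2, which encodes the cell cycle factor B-MYB, was at 0.664, 0.0674 and 16.5 scaled TPM in the MBC libraries and from 7.7 to 12.6 in PCs (1.82, SE 0.89; limma, adjusted p = 0.246; 2.95, adjusted p = 0.00569, without MBC replicate 3). The lowest values of Myb and Mybl2 in MBC replicates 1 and 2 lie near or under the depth of those libraries. Of these 2 genes 0 were called with all libraries (limma; 1 higher at an unadjusted p under 0.05) and 2 were called higher in PCs without MBC replicate 3. Mybl1 was the most abundant gene of the family in all 7 libraries.

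Mef2b encodes a factor of the MEF2 family that activates Bcl6 in GC B cells (ENSMUSG00000079033, chr8:70139711-70167488, plus strand). Mef2b was at 1.75, 0.0944 and 52.9 scaled TPM in replicates 1 to 3 of the MBCs and at 9.15, 28.3, 17.8 and 33.1 in PC replicates 1 to 4. MBC replicates 1 and 2 were below every PC library and MBC replicate 3 was above every PC library, at 1.59 times the highest. Mef2b gave a log2 fold change of 1.94, with an SE of 1.15 (limma, adjusted p = 0.339) with all libraries and 3.50 (SE 0.64; limma, adjusted p = 0.00838) without MBC replicate 3, and it was 0.74 (adjusted p = 0.72) without MBC replicate 2. The value of MBC replicate 2 is 0.14 TPM as deposited, under the floor for a 1 kb transcript, so this fold change is no measured bound. Mef2b overlaps Borcs8 on the same strand, and reads in the shared part cannot be assigned with certainty. Borcs8, a lysosome positioning gene named after its values were seen, was at 13.9, 14.7 and 52.4 scaled TPM in the MBC libraries and at 26.3, 53.7, 75 and 48.3 in the PC libraries, and the part of shared reads in the Mef2b values was not tested.

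Mef2a, Mef2c and Mef2d, which encode MEF2 factors found in many B cells, were measured from 43.5 to 83.2, from 187 to 468 and from 20.7 to 185 scaled TPM over the 7 libraries. Mef2c was thus the most abundant MEF2 gene in each library. In contrast to Mef2b, each of the 3 was lowest of the MBC libraries in MBC replicate 3. None of the 3 was called by limma with all libraries or without MBC replicate 3, and 1 (Mef2c) was lower at an unadjusted p under 0.05 (log2 fold change -0.84, SE 0.30; limma, adjusted p = 0.122). Without MBC replicate 3, Mef2c (-0.97; limma, adjusted p = 0.0439) missed a call by the fold threshold of 1 only. All 3 were called lower on the TPM as deposited, as were 26.1% of all genes. With immunoglobulin genes removed and after quantile normalization, 1 was called lower.

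**Figure D2:**
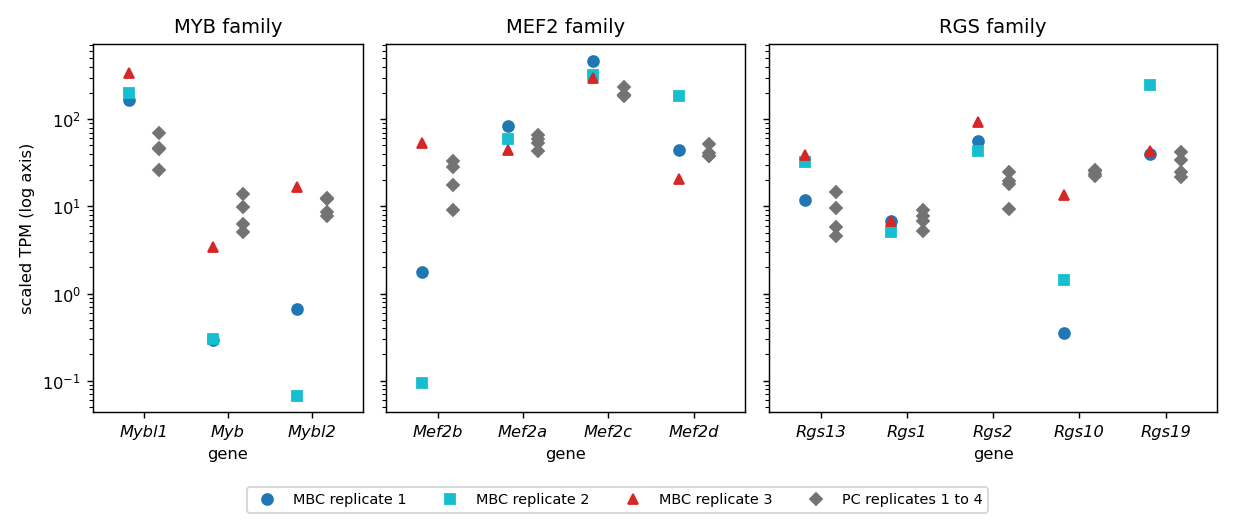
Scaled TPM (log axis) of Mybl1, Mef2b and Rgs13 beside other genes of their families in the 7 libraries, with MBC libraries on the left and PC libraries (grey diamonds) on the right of each gene. Mybl1 lies above Myb and Mybl2 in each library, whereas Mef2b lies below Mef2c in each.

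Of the members that act in signalling and migration, Gcsam encodes an adaptor of B cell receptor signalling that restrains migration (ENSMUSG00000022659, chr16:45610380-45622867, plus strand). Gcsam was at 0.0274, 7.41 and 33.2 scaled TPM in replicates 1 to 3 of the MBCs and at 10.8, 10, 6.11 and 19.1 in PC replicates 1 to 4. The value of MBC replicate 1 is 0.05 TPM as deposited, under the floor of that library for a 1 kb transcript, and the MBC libraries spanned more than the PC libraries on both sides. Gcsam gave a log2 fold change of 0.81, with an SE of 1.01 (limma, adjusted p = 0.676), and 1.92 (adjusted p = 0.133) without MBC replicate 3.

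Rgs13 encodes a regulator of G protein signalling that dampens chemokine responses of GC B cells (ENSMUSG00000051079, chr1:144138654-144177372, minus strand). Rgs13 was at 11.9, 32.3 and 38.5 scaled TPM in the MBC libraries and at 4.56, 5.78, 9.45 and 14.8 in the PC libraries. MBC replicates 2 and 3 lay above every PC library, and MBC replicate 1 lay below the highest PC library. Rgs13 had the smallest difference between MBC replicate 3 and the next MBC library of the 9 members, at 1.19 times. Its log2 fold change was -1.53 (SE 0.56; limma, adjusted p = 0.13), and -1.21 (adjusted p = 0.179) without MBC replicate 3. Rgs13 was lower in the PC library for each of the 3 shared codes, and on the TPM as deposited it was called lower in PCs (-2.75, adjusted p = 0.00988), as were the 26.1% of all genes.

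Of 8 other listed RGS genes 6 were tested, with 1 called lower and 1 called higher in PCs. Rgs2 was at 55.7, 43.6 and 92.7 scaled TPM in the MBC libraries and from 9.23 to 24.7 in PCs (log2 fold change -1.79, SE 0.44; limma, adjusted p = 0.0347). Rgs10 was at 0.351, 1.44 and 13.5 scaled TPM in the MBC libraries and from 22.6 to 26.1 in PCs (2.80, SE 0.74; limma, adjusted p = 0.0459). Rgs2 lost its call in 11 and Rgs10 in 15 of the 18 alternative fits, with adjusted p up to 0.107 and 0.156. Without MBC replicate 3 the counts were again 1 and 1.

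Basp1 encodes a membrane and nuclear protein that binds calmodulin and can act as a corepressor (ENSMUSG00000045763, chr15:25363277-25413764, minus strand). Basp1 was at 9.17, 9.5 and 45.5 scaled TPM in the MBC libraries and at 20.3, 17.6, 9.62 and 18.7 in the PC libraries. MBC replicates 1 and 2 lay just below the lowest PC library, and MBC replicate 3 was 2.25 times the highest. Basp1 gave a log2 fold change of -0.01, with an SE of 0.60 (limma, adjusted p = 0.994), and 0.71 (adjusted p = 0.269) without MBC replicate 3. Of 3 listed relatives that share its lipid-anchored, calmodulin-binding design, 2 were tested and 0 were called (limma; 1 lower at an unadjusted p under 0.05). That gene, Marcksl1, was at 14.2, 13 and 35.9 scaled TPM in the MBC libraries and from 2.11 to 7.25 in PCs (-1.92, SE 0.55; limma, adjusted p = 0.0646).

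Fas encodes the death receptor CD95, a surface marker of mouse GC B cells (ENSMUSG00000024778, chr19:34290666-34327772, plus strand). Fas was at 24, 4.65 and 32.9 scaled TPM in the MBC libraries and at 10.7, 4.98, 8.96 and 12.9 in the PC libraries. MBC replicates 1 and 3 lay above every PC library and MBC replicate 2 below every PC library. The log2 fold change was -0.77 (SE 0.65; limma, adjusted p = 0.518), and -0.26 (adjusted p = 0.808) without MBC replicate 3. Of 9 listed genes of the FAS pathway 7 were tested and 0 were called (limma; 1 lower and 1 higher at an unadjusted p under 0.05). Without MBC replicate 3, 1 was called lower and 1 higher. T cells also carry Fas, and the summed level of 10 T cell markers was 0, 0 and 2.59 scaled TPM in the MBC libraries and 72.4 to 110 in the PC libraries. Of the 10 markers 4 were tested and 3 were called higher in PCs, and all 10 were listed at 0 in MBC replicates 1 and 2. Cd28, which PCs also express, made up 41.9 to 55.7 of that sum in the PC libraries, and Cd3e, a T cell receptor subunit, 3.86 to 14.2. The T cell receptor chain genes Trac and Trbc2 made up 2.5 to 23.1 and 2.12 to 21.4 of it. Beads against CD43 and gates on B220 and CD138 were used in the sort, and the part of T cells in the Fas values was not tested.

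Of the members that act in the nucleus of GC B cells, Nuggc encodes a GTPase named for its GC expression (ENSMUSG00000061356, chr14:65598546-65648531, plus strand). Nuggc was at 5.61, 0.991 and 50 scaled TPM in replicates 1 to 3 of the MBCs and at 16.7, 28.4, 30.8 and 24.9 in PC replicates 1 to 4. As for Mef2b, MBC replicates 1 and 2 were below every PC library and MBC replicate 3 was above every PC library, at 1.62 times the highest. The log2 fold change was 1.55 (SE 0.91; limma, adjusted p = 0.339) with all libraries and 2.77 (SE 0.55; limma, adjusted p = 0.0117) without MBC replicate 3, and it was 0.45 (adjusted p = 0.763) without MBC replicate 2.

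Neil1 encodes a DNA glycosylase that removes oxidised bases in base excision repair (ENSMUSG00000032298, chr9:57142800-57148305, minus strand). Neil1 was at 5.87, 8.45 and 47.2 scaled TPM in the MBC libraries and at 18.6, 13.6, 14.8 and 16.2 in the PC libraries, the narrowest range of the 9 members in PCs. MBC replicates 1 and 2 were below every PC library and MBC replicate 3 was 2.54 times the highest. Neil1 gave a log2 fold change of 0.19, with an SE of 0.64 (limma, adjusted p = 0.883), and 1.04 (adjusted p = 0.0891) without MBC replicate 3. Of 15 other listed base excision repair genes 14 were tested, with 0 called lower (limma; 2 at an unadjusted p under 0.05) and 1 called higher. That gene, the DNA ligase Lig3, was at 0.971, 7.31 and 7.76 scaled TPM in the MBC libraries and from 17.2 to 28.6 in PCs (2.20, SE 0.59; limma, adjusted p = 0.0492), and its call was lost in 13 of the 18 alternative fits. Without MBC replicate 3, 1 of 11 tested was called lower and 2 higher.

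**Figure D3:**
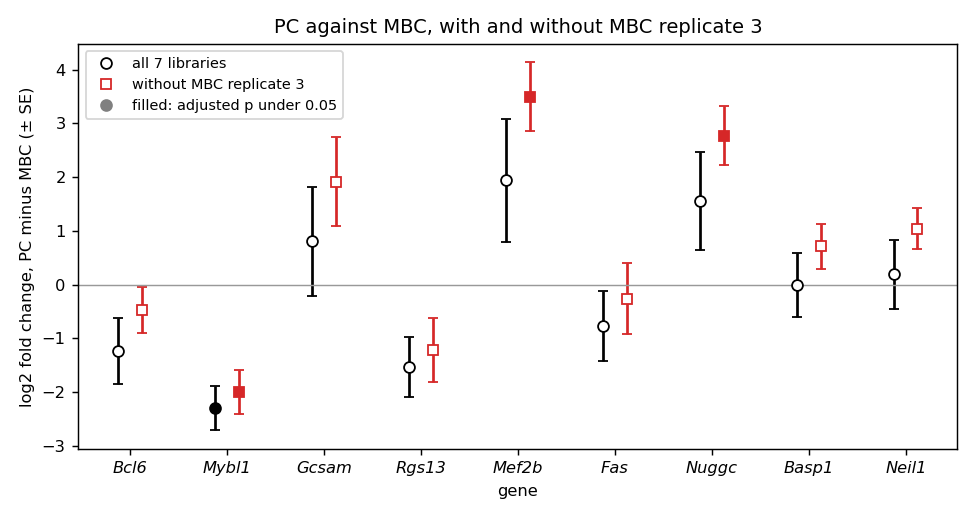
Log2 fold change (PC minus MBC, on log2(scaled TPM + 1)) with its SE for the 9 genes, fitted with all 7 libraries (black circles) and without MBC replicate 3 (red squares). Filled symbols passed the adjusted p and fold thresholds, which Mybl1 did in both fits and Mef2b and Nuggc did without MBC replicate 3.

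The library labelled MBC replicate 3 had the highest level of all 7 libraries for each of the 9 members, where this held for 10.3% of all genes tested. It was at least 2-fold above both other MBC libraries for 6 members (Bcl6, Gcsam, Mef2b, Nuggc, Basp1 and Neil1), where this held for 14.2% of all genes tested, and for 6 or 7 members in each scaling tried. It was at least 2-fold above both other MBC libraries and each PC library for 3 members (Bcl6, Basp1 and Neil1), where this held for 0.527%. The ratio to the higher of MBC replicates 1 and 2 was 1.70 for Mybl1, 1.37 for Fas, 4.48 for Gcsam, 4.79 for Basp1, 5.58 for Neil1, 8.91 for Nuggc and 30.2 for Mef2b. MBC replicates 1 and 2 were both below every PC library for 4 members (Mef2b, Nuggc, Basp1 and Neil1), where this held for 25.6% of all genes tested, and both above every PC library for Mybl1 alone, where this held for 18.1%. The members were chosen with the difference of this library known, so these counts describe it and are no independent evidence.

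Other GC genes were not uniformly higher in that library. Of 17 other GC B cell genes, it was the highest of all 7 libraries for 7, the highest of the MBC libraries for 8 (35.1% over all genes tested) and the lowest for 5, and at least 2-fold above both for 4 and below both for 3. Those below both were Cxcr5, Irf8 and Gpr183. Gpr183 is also listed among the genes that BCL6 represses, so its low level is not read as a loss of GC genes. S1pr2, a receptor that confines cells to the GC, was at 8.36, 0.0404 (under the floor for a 1 kb transcript) and 43.7 scaled TPM in the MBC libraries and from 7.77 to 14 in PCs. Hmces, a shield of abasic sites in DNA that was named after its values were seen, was at 0.84, 6.48 and 60.4 scaled TPM in the MBC libraries and from 32.6 to 39.3 in PCs. S1pr2 was not called with all libraries (log2 fold change 0.62, limma, adjusted p = 0.762).

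Between the groups, 6 of these 17 genes were called lower and 1 higher in PCs (limma), where 2.14% and 6.41% of all genes tested were. Without MBC replicate 3, 7 of 16 were called lower and 2 higher, where 8.2% and 15.1% of all genes were. Gpr183 was not called with all libraries and was called lower without MBC replicate 3 (log2 fold change -2.70, limma, adjusted p = 0.00344). It is thus 1 of those 7, and as a gene that BCL6 represses its call is not read as a loss of GC genes. Cd86, a costimulatory ligand of LZ cells, was at 89.4, 133 and 126 scaled TPM in the MBC libraries and from 3.51 to 8.59 in PCs (log2 fold change -4.19, SE 0.43; limma, adjusted p = 0.00027). Lmo2, a transcriptional cofactor, was at 42.5, 162 and 34.6 in the MBC libraries and from 2.51 to 5.84 in PCs (-3.84, SE 0.59; limma, adjusted p = 0.00318), and Cd83, an activation marker of LZ cells, fell by 3.76 on the log2 scale (SE 0.42; limma, adjusted p = 0.00046). For these 3 genes each MBC library, MBC replicate 3 included, lay above every PC library, and naive and memory B cells also express Cd83, Cd86 and Lmo2. Pou2af1, the octamer coactivator, was between 507 and 573 scaled TPM in the MBC libraries and from 987 to 1383 in PCs (1.16, SE 0.29; limma, adjusted p = 0.0394), a direction that turned on the TPM as deposited (-0.17) and after quantile normalization (-0.42), and a call that was lost in 14 of the 18 alternative fits.

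Genes that BCL6 is known to repress were examined beside Bcl6. Of 12 tested, 0 were called lower (limma; 0 at an unadjusted p under 0.05) and 2 higher in PCs. Over all genes tested, 2.14% were called lower and 6.41% higher. Without MBC replicate 3, 3 were called lower and 3 higher, where 8.2% and 15.1% of all genes were. The 2 called higher with all libraries, Prdm1 and Irf4, are also on the list of PC markers. Their calls are therefore no separate evidence on genes that BCL6 represses. Prdm1, which encodes the PC regulator BLIMP1, was at 9.98, 0 and 1.89 scaled TPM in the MBC libraries and from 91.3 to 112 in PCs (log2 fold change 5.04, SE 0.69; limma, adjusted p = 0.00172). Irf4, another regulator of PCs, was at 29.9, 12 and 11.4 scaled TPM in the MBC libraries and from 158 to 222 in PCs (3.45, SE 0.39; limma, adjusted p = 0.00054). The library labelled MBC replicate 3 was the lowest of the MBC libraries for 9 of the 12 and at least 2-fold below both others for 6, where the latter held for 9.53% of all genes tested. Of these, Gpr183, a migration receptor that draws cells out of the follicle centre and was named after its values were seen, was at 37, 45.2 and 3.07 scaled TPM in the MBC libraries and from 4.13 to 6.16 in PCs. Of the 6 listed corepressors of BCL6, 5 were tested and 0 were called (limma; 1 lower at an unadjusted p under 0.05), and 2 were called lower and 1 higher without MBC replicate 3.

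Markers of MBCs and of dividing cells moved with the library labelled MBC replicate 3. Of 10 proliferation genes it was the highest of the MBC libraries for 10 and at least 2-fold above both for 9, and the summed level was 199.6, 231 and 1089 scaled TPM in replicates 1 to 3 of the MBCs and 537 to 787 in the PC libraries. Mki67, the gene of the Ki-67 antigen, was at 41.2, 62 and 269 scaled TPM in the MBC libraries and from 188 to 238 in PCs. Of 10 MBC markers it was at least 2-fold below both other MBC libraries for 8, and their summed level was 602, 942 and 125 scaled TPM in the MBC libraries and 57.4 to 83.4 in the PC libraries. Ccr6, a chemokine receptor of MBCs and their precursors, was at 108, 136 and 2.26 scaled TPM in the MBC libraries and from 0.787 to 2.98 in PCs, whereas Bach2, a repressor of the PC fate, was at 75.8, 95.4 and 85 and between 15.7 and 27.6. Of 6 markers of naive and follicular B cells it was the lowest of the MBC libraries for 6. Of 10 PC markers all 10 were called higher in PCs with and without that library, and the groups did not overlap for any of them. The part of the cell mixture in the levels of the 9 members was not tested, and in bulk samples fewer cells of a type and less RNA per cell cannot be told apart.

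**Figure D4:**
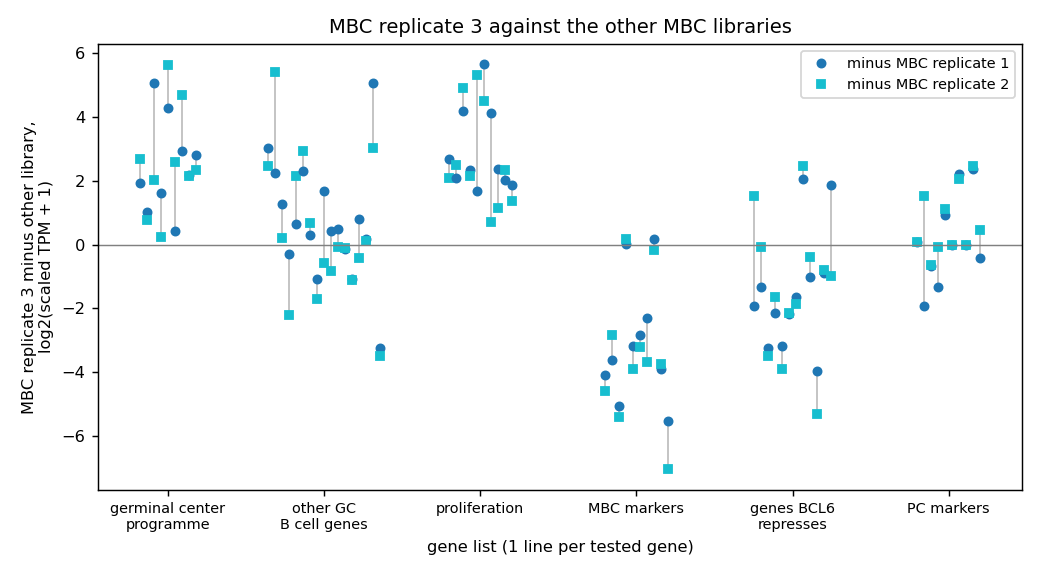
Difference between MBC replicate 3 and each of the other MBC libraries on the log2(scaled TPM + 1) scale, for each tested gene of 6 lists (1 vertical line per gene, circle against MBC replicate 1, square against MBC replicate 2). The 9 members and the 10 proliferation genes lie above 0, 8 of 10 MBC markers lie at least 2-fold below both libraries, and other GC B cell genes lie on both sides.

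With that library left out, 5 of the 10 proliferation genes were called higher in PCs and 9 of the 10 MBC markers lower, against 0 (limma; 0 at an unadjusted p under 0.05) and 3 with all libraries. The 3 were Hhex (log2 fold change -3.74, limma, adjusted p = 0.0247), Pecam1 (-3.09, adjusted p = 0.0381) and Bach2 (-2.08, adjusted p = 0.00484). Hhex lost its call in 7, Pecam1 in 9 and Bach2 in 1 of the 18 alternative fits. The 2 members called higher in PCs without that library, Mef2b and Nuggc, are thus read beside the 15.1% of all genes called in that direction in the same fit. Both also passed within the more frequent title prefix, which leaves out MBC replicate 3 and PC replicate 4, at 3.31 (limma, adjusted p = 0.0325) for Mef2b and 2.79 (limma, adjusted p = 0.0412) for Nuggc, in a fit that called 9.89% of all genes higher. Other lists of cells that a spleen sort can hold gave low or scattered sums. Myeloid markers summed to 24.2, 29.8 and 2.32 scaled TPM in the MBC libraries and 6.4 to 9.75 in the PC libraries, follicular dendritic cell markers to 51.7, 16.2 and 27.1 and to 7.83 to 32.4, and platelet markers to at most 4.58. Of the 6 follicular dendritic cell markers 1 was tested, the Fc receptor gene Fcgr2b, and it made up nearly all of that sum. Fcgr2b was at 51.2, 16.2 and 26.6 scaled TPM in the MBC libraries and from 6.18 to 31.9 in the PC libraries. Erythroid markers reached 4524 in MBC replicate 2 and at most 122 elsewhere.

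The genes whose pattern over the 7 libraries was most like that of each member were listed by Pearson's r of log2(scaled TPM + 1), as a description over 7 libraries that share the group difference and the distinct library. Closest to Mybl1 were Scaf11, Ckap5 and Lrmp (0.969 to 0.989). Nearest to Bcl6 were Gm6863, Klhl6 and Dusp2 (0.922 to 0.957), and nearest to Fas were Fgfr1op, Camta1 and Bcl7a (0.923 to 0.94). For Gcsam these were Tcp1, Syce2 and Kif18b, for Rgs13 Cpsf2 and Rab39, and for Mef2b Vps26c, Tipin and Cdc45. For Nuggc they were Med10, Dynlt1a and Thoc5, for Basp1 Gm13237, Clic1 and Tmem106c, and for Neil1 Hspa2, Strn and Arhgap11a. Each of these lists led with an r of at least 0.976. Lrmp was at 70.5, 82 and 143 scaled TPM in the MBC libraries and from 14.4 to 38.5 in PCs. As Lrmp was picked by its likeness to Mybl1 in these libraries, their shared order of groups is no separate evidence.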

How the data were processed

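Bulk RNA sequencing of 3 MBC and 4 PC libraries was used. The authors deposited TPM values per Ensembl gene, and the submitters' processing notes name STAR 2.5.2a, RSEM 1.3.0 and build GRCm38. The annotation release is not given in the sources used here. TPM is divided by gene length and by the library sum, so abundant immunoglobulin transcripts lower all other genes of PC libraries. Symbols came from GENCODE M21 and matched 48349 of 48795 genes.

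Scaling factors were medians of the ratios to geometric means, taken over 9305 genes above 0 in all libraries. A limma 3.58.1 fit (R 4.3.3; eBayes with a mean-variance trend, no covariate) of log2(scaled TPM + 1) covered the 11573 genes with 1 TPM or more in 3 or more libraries, and p-values were Benjamini-Hochberg adjusted over all of them. A call needed an adjusted p under 0.05 and a change of 1 or more on the log2 scale. The paper's main text names no test for these samples; its supplement was not used here. The procedure was tested on simulated data. Depth was estimated from the step of low TPM values, a choice made after the values were seen: 76.4% to 83.6% of low values lay within 0.15 reads of a whole number, where 30% would by coincidence, and the floor was 3 reads of a 1 kb transcript. Alternatives changed the scaling, pseudocount, filter, trend and libraries.

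The members and gene lists were chosen with earlier results of these data known. Members are given in full. Of other lists the rule took the 3 called genes with the largest change and the 3 most abundant, plus fixed family and marker genes; those on which no result turned are given by counts, and some genes that the rule took are not reported here. Motifs were searched with Python 3.11.15 and pandas 2.3.3.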

Additional observations from a re-analysis of the deposited data

Results flagged for a closer look

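Among the PC libraries, 2 of 35 named genes had 1 library far from the other 3 (gap over range above Dixon's 95% critical value for 4 samples), and chance flags about 1 in 20 groups. Mef2c was at 236 scaled TPM in PC replicate 3 and from 187 to 190.3 in the remaining PC libraries. Mki67 was at 238 scaled TPM in PC replicate 3 and between 188 and 195 in the others. No member had such a library in PCs, and the 3 MBC libraries are too few for this check.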

How the results depend on the processing

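The call of Mybl1 as lower in PCs held in all 18 alternative fits, with log2 fold changes from -3.61 to -2.00. On the TPM as deposited, 3 members were called lower (Bcl6, Mybl1 and Rgs13), where 26.1% of all genes were called lower and the median over all genes moved from 0.141 to -0.911. The number of members called higher was 0 to 2 when 1 library was left out, with 2 only without MBC replicate 3, and 2 within the more frequent title prefix. Over the 67 tested genes of the related lists, 7 were called lower and 5 higher in PCs, where 2.14% and 6.41% of all genes tested were. On the TPM as deposited, 29 of the 67 were called lower and 2 higher. When 1 library was left out, 4 (without PC replicate 2) to 15 (without MBC replicate 3) were lower and 2 to 12 higher, with 12 only without MBC replicate 3. The count of higher genes was 2 with immunoglobulin genes removed and with all genes above 0 tested, 3 after quantile normalization, with a pseudocount of 0.1 or 0.5 and without the trend, and 8 within the prefix. The labels share replicate numbers between the groups, but same-numbered libraries did not deviate together (r of 0.109, -0.0398 and -0.0832), and title codes gave 0.109, -0.00436 and 0.222. With the replicate block by number, Mybl1 was -2.33 (limma, adjusted p = 0.0435), 1 member was lower, 4 related genes were lower and 2 higher, and 1 of the 10 MBC markers was lower. With the replicate block by title code, Mybl1 was -2.05 (adjusted p = 0.039), 2 related genes were higher and 2 MBC markers were lower. Over all genes the count of lower and higher calls fell from 248 and 742 to 60 and 390 by number and to 83 and 434 by code. Without MBC replicate 3 it was 881 and 1624. The cause of these changes was not tested.

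Log2 fold changes that changed sign belonged to genes that were not called, with the exception of Pou2af1. On the TPM as deposited these were Gcsam (-0.16), Neil1 (-1.04), S1pr2 (-0.44), Mki67 (-0.13) and Pou2af1 (-0.17), and Pou2af1 was -0.42 after quantile normalization. Neil1 was -0.07 with immunoglobulin genes removed. Basp1 was 0.01 and 0.00 with pseudocounts of 0.1 and 0.5, and 0.64 within the prefix. Over the fits that left out 1 library, Gcsam ranged from -0.56 to 1.92, Basp1 from -0.40 to 0.71, Neil1 from -0.37 to 1.04, S1pr2 from -0.84 to 1.83, Mef2d from -1.10 to 0.42 and Mef2a from -0.34 to 0.09. The signs turned without MBC replicate 1 (Gcsam, Neil1, Mef2a), MBC replicate 2 (Neil1, S1pr2, Mef2d), MBC replicate 3 (Basp1) or PC replicate 3 (Basp1). Floors of 0.437 and 0.484 TPM in MBC replicates 1 and 2 limit what can be said of Gcsam, Mef2b and S1pr2 there.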
